A study of Homo sapiens with 6 samples.

Results

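Cytochromes P450, the conjugating enzymes that act beside them and the receptor AHR were examined after depletion of calmegin (CLGN), a chaperone of the endoplasmic reticulum. The set holds 53 genes, taken by name from the 58735 genes of the expression table: 25 P450s, the microsomal electron donor POR, 8 UDP-glucuronosyltransferases (UGT), 5 sulfotransferases (SULT), 9 glutathione S-transferases (GST), 2 epoxide hydrolases (EPHX), 2 arylamine N-acetyltransferases (NAT) and AHR. RNA came from Hep-G2 cells, an established line that the labels assign to hepatocellular carcinoma (HCC) and hepatocytes. Both groups had been transduced with a lentivirus that expresses a short hairpin RNA and kept under puromycin, 3 libraries with a negative control hairpin (sh-NC, genotype labelled WT, treatment shcontrol) and 3 with a hairpin against CLGN (sh-CLGN, genotype labelled CLGN knock down). All 6 libraries carry the batch label 0DAY, and each group rests on 1 hairpin sequence, so an effect of that hairpin on other transcripts and the loss of CLGN cannot be told apart. No source used here says that the libraries of a group are separate cultures, so p-values measure only the spread between these libraries, which may be technical.

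These enzymes clear foreign compounds and hormones in steps. P450s are membrane-bound monooxygenases that insert oxygen into a substrate, and the microsomal ones take electrons from POR. UGTs, SULTs, GSTs and NATs then attach glucuronic acid, sulfate, glutathione or an acetyl group. The liver is the main site of this chemistry, and liver tumor lines are known to keep only part of it. AHR is a receptor for planar aromatic compounds that pairs with ARNT and switches on CYP1 genes through DNA elements with the core GCGTG.

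Of the 53 genes, 28 reached 1 FPKM (fragments per kilobase of gene, scaled to library size) in at least 3 libraries and were tested, and 25 did not. AHR, CYP1A1, CYP2B6, CYP2S1 and EPHX2 fell by more than 1 on the log2 scale. The sulfotransferases SULT1E1 and SULT2A1, the glucuronosyltransferase UGT2B11 and the fatty acid epoxygenase CYP2J2 rose by 0.68 to 0.96. A gene was called at a limma adjusted p of at most 0.05, and log2 changes are differences in log2(FPKM + 1), sh-CLGN minus sh-NC. By that rule 21 of the 28 tested genes were called, 11 of which rose and 10 fell, while of all 13074 genes tested 65.8% were called, 26.7% rose and 39.0% fell. The median log2 change of the 28 was -0.07 and that of all tested genes -0.08. With an absolute log2 change of at least 1 required as well, 0 of the 28 rose and 5 fell, against 3.09% and 3.19% of all tested genes (6.28% in either direction). The count of 5 was 2 under scaling by read totals (CYP2B6 and CYP2S1) and 2 after a GC correction (AHR and CYP2B6). The groups did not overlap for 21 of the 28, a share of 75% beside 70.2% of all tested genes. CYP2B6 and CYP2S1 were below 1 FPKM in all 3 sh-CLGN libraries, so they passed the expression filter through sh-NC alone. In bulk RNA, fewer cells expressing a gene and less RNA per cell cannot be told apart.

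**Figure D1:**
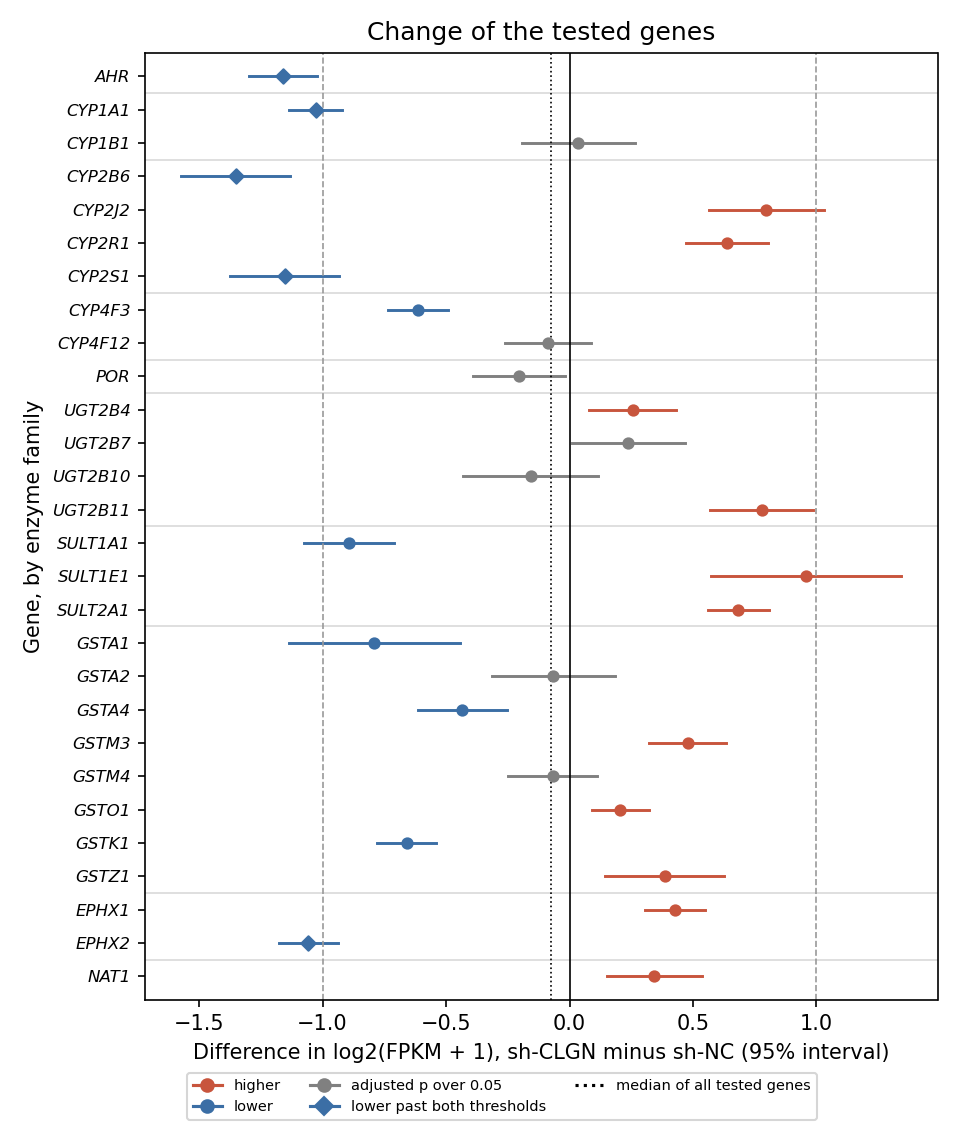
Difference in log2(FPKM + 1), sh-CLGN minus sh-NC, of the 28 tested genes by enzyme family, with 95% intervals from limma. Dashed lines mark a change of 1 in either direction and the dotted line the median of all 13074 tested genes (-0.08). The diamonds for AHR, CYP1A1, CYP2B6, CYP2S1 and EPHX2 lie beyond the left dashed line, and no point lies beyond the right one.

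Of the 5 genes with the largest falls, 4 have a promoter window in RefSeq (build GRCh38.p14), and these are printed together with that of SULT1E1, the tested gene with the largest rise. Each window runs from 250 bases before to 50 bases after the start that RefSeq gives for the gene, which can differ from the GENCODE 29 start (for AHR it lies inside the GENCODE 29 gene), and is written 5′ to 3′ on the strand of the gene. Capitals mark GCGTG, the core bound by AHR with ARNT, TATAAA, the TATA box, and GGGCGG, the GC box, each on either strand, so that CCGCCC and TTTATA are marked too. The windows are chr7:17298402-17298701 (plus strand) for AHR, chr15:74725479-74725778 (minus) for CYP1A1, chr19:40991032-40991331 (plus) for CYP2B6, chr19:41192969-41193268 (plus) for CYP2S1 and chr4:69860096-69860395 (minus) for SULT1E1.
AHR: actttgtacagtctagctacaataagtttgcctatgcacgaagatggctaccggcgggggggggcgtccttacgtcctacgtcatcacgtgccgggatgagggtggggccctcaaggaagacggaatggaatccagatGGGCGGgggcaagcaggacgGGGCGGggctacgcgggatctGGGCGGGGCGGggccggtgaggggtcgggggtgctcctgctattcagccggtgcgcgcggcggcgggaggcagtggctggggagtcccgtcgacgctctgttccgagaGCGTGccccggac
CYP1A1: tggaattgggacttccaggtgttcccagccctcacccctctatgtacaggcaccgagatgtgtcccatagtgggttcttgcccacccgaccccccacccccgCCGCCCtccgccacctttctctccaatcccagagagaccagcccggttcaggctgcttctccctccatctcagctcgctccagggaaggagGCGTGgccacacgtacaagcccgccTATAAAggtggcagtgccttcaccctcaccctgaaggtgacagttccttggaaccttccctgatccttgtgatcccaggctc
CYP2B6: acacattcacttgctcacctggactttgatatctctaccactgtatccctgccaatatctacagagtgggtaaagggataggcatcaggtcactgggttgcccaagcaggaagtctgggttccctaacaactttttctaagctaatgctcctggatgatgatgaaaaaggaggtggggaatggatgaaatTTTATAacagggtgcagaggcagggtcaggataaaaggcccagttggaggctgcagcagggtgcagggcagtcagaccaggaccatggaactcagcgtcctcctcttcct
CYP2S1: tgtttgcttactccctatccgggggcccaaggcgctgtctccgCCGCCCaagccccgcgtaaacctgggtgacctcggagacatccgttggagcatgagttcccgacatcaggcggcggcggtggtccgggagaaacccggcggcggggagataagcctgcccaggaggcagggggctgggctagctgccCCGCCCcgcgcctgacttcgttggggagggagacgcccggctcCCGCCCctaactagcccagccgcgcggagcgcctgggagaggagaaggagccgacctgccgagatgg
SULT1E1: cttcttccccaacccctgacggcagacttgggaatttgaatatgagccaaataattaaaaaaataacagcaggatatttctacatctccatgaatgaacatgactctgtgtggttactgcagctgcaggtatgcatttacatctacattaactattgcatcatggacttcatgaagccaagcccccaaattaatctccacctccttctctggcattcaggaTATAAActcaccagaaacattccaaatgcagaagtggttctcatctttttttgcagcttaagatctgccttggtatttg

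CYP1A1 was the only one of these 5 windows with all 3 motifs, 1 copy of each. The AHR window held 1 GCGTG and 4 GC boxes at 67.3% GC, and the CYP2S1 window 3 GC boxes at 70.0% GC. CYP2B6 and SULT1E1 had a TATA box and neither of the other motifs, at 50% and 40.3% GC. Over the 41 of 53 genes with a window, GCGTG was found in 13, TATAAA in 18 and GGGCGG in 16. Of the called genes among those 13, AHR and CYP1A1 fell, while CYP2J2, EPHX1, GSTM3, GSTZ1 and SULT2A1 rose. Of all 35116 RefSeq windows of this length, 36.5% held GCGTG, 11.5% TATAAA and 45.0% GGGCGG. These are shares of windows, whereas a gene was counted where any of its windows held the motif. A match describes the letters of the window only.

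To see whether the receptor and its target family changed together, AHR and the CYP1 genes were read first. AHR (ENSG00000106546, chr7:16916359-17346152, GRCh38) was at 10.46, 10.10 and 11.10 FPKM in the sh-NC libraries and at 3.997, 4.371 and 4.139 in the sh-CLGN libraries. Every sh-CLGN library lay below every sh-NC library, and the mean was 39.5% of the control. The log2 change was -1.16 (SE 0.060, limma adjusted p = 4.25e-06). In the annotation, 29.4% of the exon bases of AHR are shared with AC019117.2 on the same strand, so reads there belong to either gene.

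CYP1A1 (ENSG00000140465), which oxidizes polycyclic aromatic hydrocarbons and is the classic AHR target, was the most abundant P450 of the set. It was at 95.2, 93.7 and 94.5 FPKM in sh-NC and at 44.4, 47.9 and 45.3 in sh-CLGN. The groups lay far apart, and libraries within a group differed by at most a few FPKM. Its log2 change was -1.03 (SE 0.046, limma adjusted p = 2.52e-06). Its neighbour CYP1A2, the caffeine-metabolizing enzyme, was nearly silent and went the other way, with 2, 4 and 6 reads in sh-NC against 23, 26 and 12 in sh-CLGN. CYP1B1, which hydroxylates estradiol, was at 1.12 ± 0.0904 FPKM in sh-NC against 1.18 ± 0.184 in sh-CLGN (SD, n = 3). Its difference of 0.04 was within the spread, with a 95% interval of -0.19 to 0.26 on the log2 scale, and it turned to -0.16 under quantile normalization. CYP1A1 was thus the CYP1 gene called in this comparison, and CYP1B1 gave no call.

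Among the CYP2 genes, 4 of 12 were tested and called, 2 in each direction, where 65.8% of all tested genes were called. CYP2B6 (ENSG00000197408, chr19:40991250-41018398), which metabolizes bupropion, efavirenz and cyclophosphamide, was at 2.91, 2.91 and 2.88 FPKM in sh-NC and at 0.705, 0.405 and 0.494 in sh-CLGN. The sh-CLGN mean was 18.4% of the control, the log2 change -1.35 (SE 0.095, limma adjusted p = 1.45e-05). CYP2S1 (ENSG00000167600), a P450 expressed in epithelia and inducible through AHR, was at 1.77, 1.93 and 1.66 FPKM in sh-NC and at 0.205, 0.233 and 0.323 in sh-CLGN. That is 14.2% of the control, the lowest remaining share among the tested genes, with a log2 change of -1.15 (SE 0.095, limma adjusted p = 3.02e-05). Since a pseudocount of 1 shrinks the change of low genes, the ratio of the means was larger, 5.43-fold lower for CYP2B6 and 7.04-fold lower for CYP2S1. Both had passed the expression filter through sh-NC alone, which favours a fall. Their adjusted p-values and the count of falls among the CYP2 genes carry that limit. CYP2B6 and CYP2S1 lie in the same cluster of chromosome 19, within chr19:40843538-41207539.

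CYP2J2, the epoxygenase that makes fatty acid epoxides from arachidonic acid, rose from 2.54, 3.37 and 2.38 FPKM in sh-NC to 5.48, 5.71 and 5.30 in sh-CLGN. Its log2 change was 0.80 (SE 0.101, limma adjusted p = 0.000252), and the highest sh-NC library stayed below the lowest sh-CLGN library. CYP2R1, the hydroxylase that makes the circulating form of vitamin D, rose by 0.64 from a mean of 2.54 to 4.51 FPKM. The other 8 CYP2 genes were below the filter. Of these, CYP2D6, which activates codeine, had 15, 16 and 11 reads in sh-NC against 26, 36 and 41 in sh-CLGN, and CYP2A6, the nicotine oxidase, had 3, 6 and 5 against 20, 27 and 14. CYP2C8, CYP2C18, CYP2C19, CYP2U1 and CYP2W1 overlapped between the groups, at 1 to 57 reads a library. The ethanol-inducible CYP2E1 had 4 to 7 reads in sh-NC and 11 in each sh-CLGN library.

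The CYP3A genes, which metabolize the widest range of drugs in adult liver, were all below the filter. CYP3A5 had 21, 29 and 29 reads in sh-NC against 91, 110 and 97 in sh-CLGN, a mean of 0.265 against 0.892 FPKM. CYP3A4 had 0 to 6 reads and the fetal form CYP3A7 0 to 6 reads, with overlapping groups, so no difference was detectable at this depth. Of the CYP4 genes, CYP4F3, which inactivates leukotriene B by hydroxylating its tail, was at 10.5, 10.5 and 11.2 FPKM in sh-NC and at 6.60, 6.58 and 6.81 in sh-CLGN. It fell by 0.61 (SE 0.053, limma adjusted p = 3.61e-05), and the groups did not overlap. Its neighbour CYP4F12 had a log2 change of -0.09 (95% interval -0.26 to 0.09). CYP4F11 had 0 reads in all 6 libraries, CYP4F2 0 to 4, and CYP4V2, a fatty acid hydroxylase, 93 to 130 in sh-NC against 134 to 159 in sh-CLGN. In FPKM the groups of CYP4V2 overlapped, at 0.804, 0.650 and 0.857 in sh-NC against 0.956, 0.840 and 0.846 in sh-CLGN. The catabolic enzymes of vitamin D and retinoic acid were also low, CYP24A1 with 1, 1 and 2 reads against 9, 4 and 7, and CYP26A1 with 9, 6 and 8 reads against 16, 22 and 19.

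**Figure D2:**
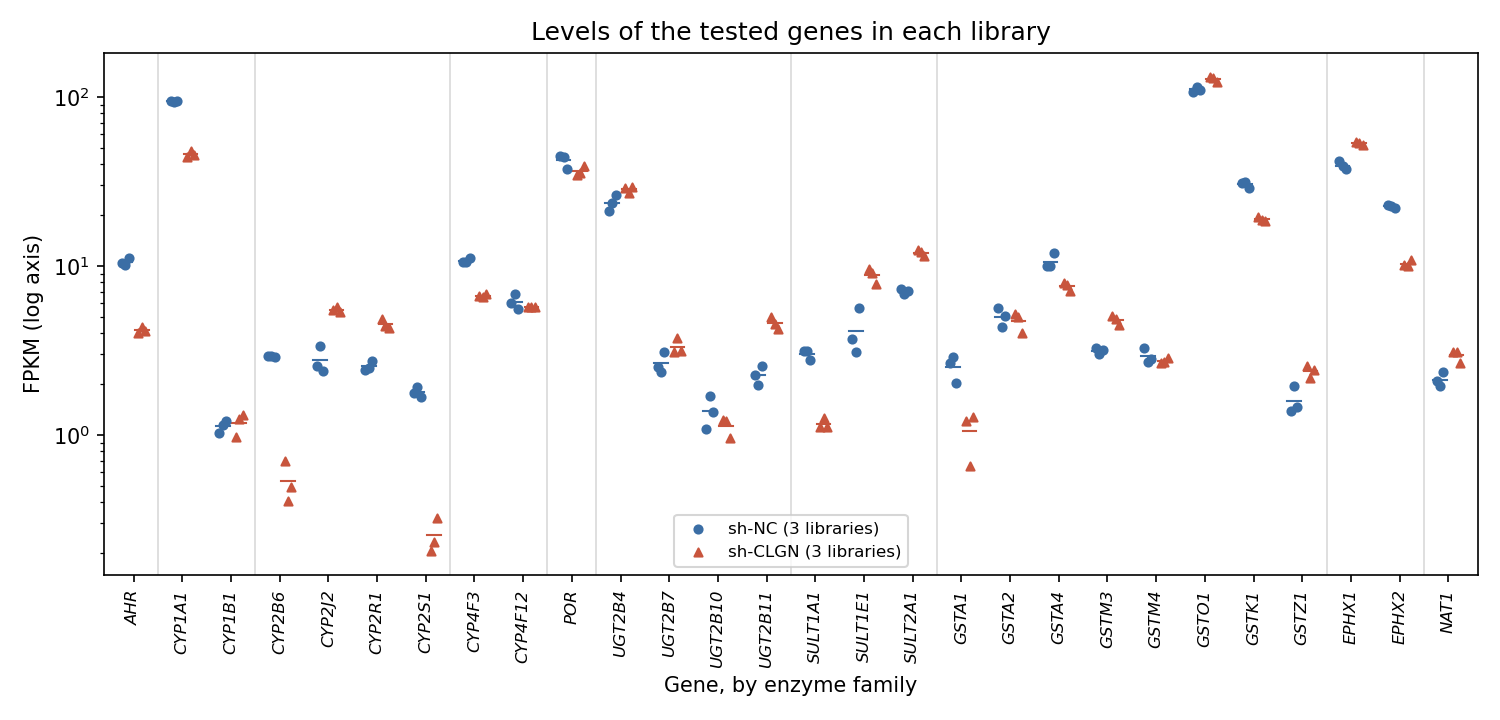
Level in FPKM (log axis) of each tested gene in each library, sh-NC as circles and sh-CLGN as triangles, with a bar at the group mean. AHR, CYP1A1, CYP2B6, CYP2S1 and EPHX2 show triangles well below the circles, and SULT1E1, UGT2B11 and CYP2J2 show them above.

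To ask what these changes did to the P450 transcripts of the set, the FPKM of its 25 P450s were summed in each library. The sum was 126 to 128 FPKM in sh-NC against 75.1 to 79.2 in sh-CLGN. CYP1A1 made up 73.5% to 75.3% of it in sh-NC against 59.1% to 60.5% in sh-CLGN. The other 24 P450s of the set together were at 31.2 to 33.9 FPKM in sh-NC against 30.7 to 31.3 in sh-CLGN. Most of the fall of the sum thus lay in CYP1A1. The tested P450s outside the set were not summed. Their means in sh-NC and sh-CLGN were 33.5 and 31.1 FPKM for CYP27A1, 26.1 and 14.1 for CYP26B1 and 6.69 and 6.22 for CYP20A1. CYP51A1 was at 5.99 and 2.57 FPKM, CYP39A1 at 2.29 and 3.11 and CYP19A1 at 0.295 and 3.12. POR, which supplies all microsomal P450s with electrons, was at 44.9, 44.0 and 37.4 FPKM in sh-NC and at 34.5, 35.6 and 38.9 in sh-CLGN. The third sh-NC library lay within the range of sh-CLGN, and the log2 change of -0.20 missed the threshold (SE 0.080, limma adjusted p = 0.0517). Without that library it was -0.29 with an adjusted p of 0.00465. The change of POR was -0.014 under scaling by read totals, and it turned to 0.070 under quantile normalization and 0.060 after a GC correction.

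**Figure D3:**
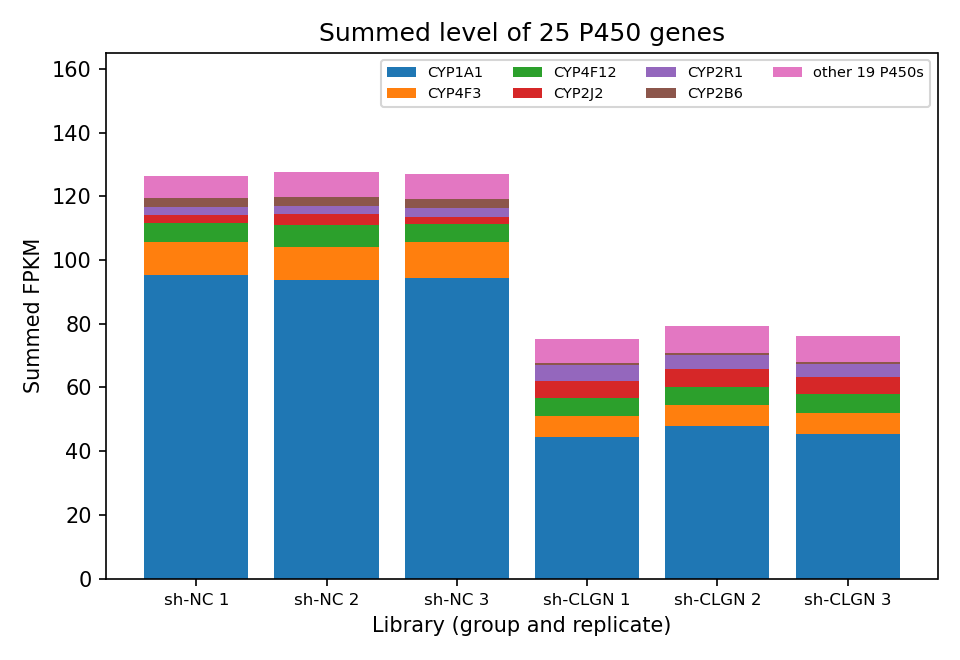
Summed FPKM of the 25 P450 genes in each library, stacked by gene. CYP1A1 is the lowest block, at 93.7 to 95.2 FPKM in sh-NC against 44.4 to 47.9 in sh-CLGN, and the blocks above it sum to 31.2 to 33.9 and 30.7 to 31.3 FPKM.

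Of the UGT genes, the 4 tested ones belong to the UGT2B family. Of these 4, 2 rose and 0 fell, beside 26.7% and 39.0% of all tested genes. UGT2B11 (ENSG00000213759) was at 2.27, 1.96 and 2.54 FPKM in sh-NC and at 5.01, 4.51 and 4.21 in sh-CLGN, a log2 change of 0.78 (SE 0.090, limma adjusted p = 0.000164). The groups lay apart, but 36.4% of the 50-base stretches of UGT2B11 occur in other genes, mainly UGT2B25P and UGT2B28, so its reads could come from them. UGT2B4, which glucuronidates bile acids, was the most abundant UGT at 23.6 ± 2.47 and 28.3 ± 1.04 FPKM (SD, n = 3). It rose by 0.26 (limma adjusted p = 0.0178), a call lost without sh-CLGN library 1 (0.25, adjusted p = 0.0546) or 3 (0.24, 0.0552) and after a GC correction (0.14). UGT2B7, the morphine-glucuronidating enzyme, had a log2 change of 0.24 (95% interval 0.01 to 0.47, limma adjusted p = 0.0642, and past the threshold in 4 of the 19 alternatives), and UGT2B10, which conjugates nicotine, one of -0.16 (-0.43 to 0.12). The androgen-conjugating UGT2B15 had 17, 13 and 24 reads in sh-NC against 12, 7 and 14 in sh-CLGN. UGT1A1, the bilirubin-conjugating enzyme, had 36 to 38 reads in sh-NC against 15 to 48 in sh-CLGN, while UGT1A6 and UGT1A9 had at most 6. The UGT1A genes share 44.0% to 61.2% of their exon bases with other genes of that locus, so reads cannot be assigned among them.

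The 3 tested sulfotransferases were called, as were 65.8% of all tested genes. SULT1E1 (ENSG00000109193, chr4:69841212-69860152), the estrogen sulfotransferase, was at 3.67, 3.11 and 5.63 FPKM in sh-NC and at 9.53, 9.13 and 7.76 in sh-CLGN. The third library was the highest of sh-NC and the lowest of sh-CLGN, and the groups still did not overlap. The log2 change was 0.96 (SE 0.166, limma adjusted p = 0.00132) and passed 1 when either of those libraries was left out. In the annotation, 24.1% of the exon bases of SULT1E1 are shared with AC108941.2 on the same strand. SULT2A1, which sulfates dehydroepiandrosterone and bile acids, rose by 0.68, from 7.06 ± 0.195 to 11.9 ± 0.483 FPKM (SD, n = 3). SULT1A1, which sulfates phenols, went the other way, from 3.13, 3.12 and 2.77 FPKM to 1.11, 1.25 and 1.11, a log2 change of -0.89 (SE 0.078, limma adjusted p = 4.06e-05). SULT1E1 and SULT2A1 thus differed in sign from SULT1A1. SULT1A1 shares 14.9% of its 50-base stretches with SULT1A2 and other genes, and SULT1A2 itself had 17 to 27 reads in sh-NC against 11 to 22 in sh-CLGN. The thyroid hormone sulfotransferase SULT1B1 had 28, 12 and 24 reads against 36, 42 and 35.

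Among the GST genes, 8 of 9 were tested, 3 of which rose and 3 fell, beside 26.7% and 39.0% of all tested genes. GSTA1, the major alpha-class enzyme of liver, was at 2.67, 2.89 and 2.03 FPKM in sh-NC and at 1.21, 0.659 and 1.28 in sh-CLGN. Its log2 change was -0.79 (SE 0.149, limma adjusted p = 0.00204). GSTA4, which conjugates products of lipid peroxidation, fell by 0.43, and GSTK1, the kappa-class enzyme of mitochondria and peroxisomes, fell by 0.66, from 30.3 ± 1.43 to 18.8 ± 0.473 FPKM (SD, n = 3). GSTM3 rose by 0.48, GSTZ1, the isomerase of tyrosine breakdown, by 0.39, and GSTO1, the omega-class enzyme and the most abundant gene of the set, by 0.21, from 111 ± 4.03 to 128 ± 4.35 FPKM. GSTA2, at -0.06, and GSTM4, at -0.07, did not pass, and both turned positive under TPM scaling and scaling by read totals. GSTA1 and GSTA2 are closely related copies that may share reads, with 26.2% and 18.4% of their 50-base stretches found in other genes. GSTM2, below the filter, had 40, 27 and 30 reads in sh-NC against 60, 64 and 48 in sh-CLGN.

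The epoxide hydrolases moved in opposite directions. EPHX2 (ENSG00000120915), the soluble enzyme that hydrolyzes fatty acid epoxides such as those made by CYP2J2, was at 22.8, 22.7 and 22.0 FPKM in sh-NC and at 10.1, 9.93 and 10.8 in sh-CLGN. This was 45.8% of the control, a log2 change of -1.06 (SE 0.052, limma adjusted p = 3.3e-06). EPHX1, the microsomal enzyme that hydrolyzes epoxides of foreign compounds, was at 41.6, 38.9 and 37.3 FPKM in sh-NC and at 53.8, 53.2 and 52.1 in sh-CLGN, a rise of 0.43 (SE 0.053, limma adjusted p = 0.000226). In neither gene did the groups overlap. NAT1, the acetyltransferase of arylamines found in most tissues, was at 2.08, 1.95 and 2.35 FPKM in sh-NC and at 3.11, 3.10 and 2.68 in sh-CLGN. It rose by 0.34 (SE 0.083, limma adjusted p = 0.00714), and the libraries of the groups stayed apart. The isoniazid-acetylating NAT2 had 9, 12 and 17 reads in sh-NC against 41, 27 and 15 in sh-CLGN, with 1 library overlapping.

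**Figure D4:**
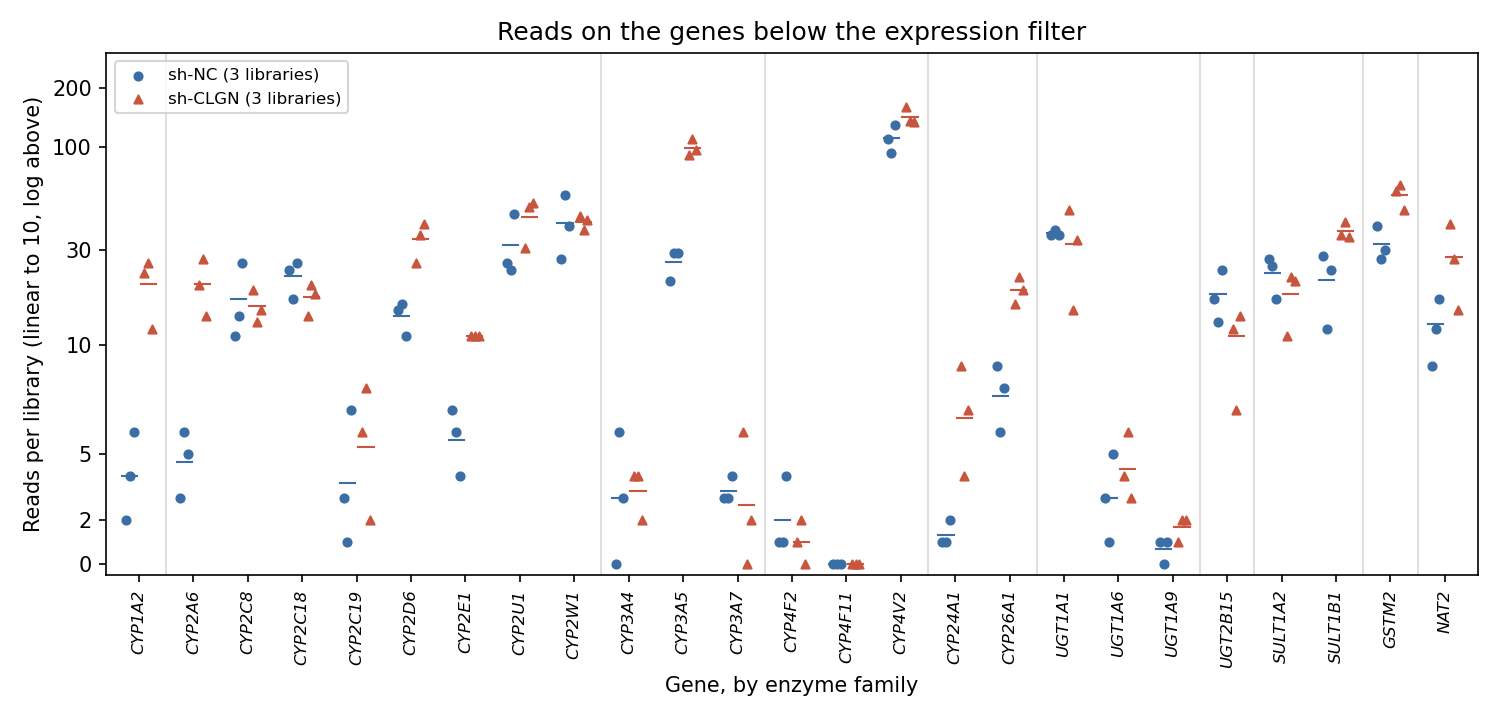
Reads per library (linear up to 10, logarithmic above) on the genes below the expression filter, sh-NC as circles and sh-CLGN as triangles, with a bar at the group mean. CYP3A5 stands out with 21 to 29 reads in sh-NC against 91 to 110 in sh-CLGN, and CYP4F11 is at 0 throughout.

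The 25 genes below the filter carried few reads, and the floor of 3 reads was worth at most 0.163 FPKM on any of them. In a fit with voom on all genes with at least 10 reads over the 6 libraries, chosen after the data were seen, 22 of the 25 could be fitted. Of these 8 rose and 0 fell, where 26.1% of the 22042 genes in that fit rose and 25.4% fell. Shares given here cover all genes in a fit, and those among genes below the filter alone were not taken. The median change of all genes was -0.09 with voom on the 13074 tested genes and 0.11 in this fit, so the low genes it added moved the median up. The 8 were CYP1A2, CYP2A6, CYP2D6, CYP3A5, CYP24A1, CYP26A1, SULT1B1 and GSTM2. Their log2 changes ran from 0.67 for GSTM2 and 0.72 for SULT1B1 to 1.73 for CYP3A5 (adjusted p = 4.25e-07), 1.77 for CYP24A1 (adjusted p = 0.0423) and 2.06 for CYP1A2 (adjusted p = 0.00229), and the median of all genes was 0.11. CYP24A1 and CYP1A2 rest on sums of 4 and 12 reads in sh-NC. With no filter in limma 24 of the 25 were in the fit, 4 rose (CYP1A2, CYP2A6, CYP3A5 and CYP26A1) and 0 fell, beside 13.6% and 14.1% of all 33474 genes. CYP2A6 and CYP2D6 share 32.0% and 34.4% of their 50-base stretches with neighbouring copies such as CYP2A7 and CYP2D7.

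Many of these genes lie side by side, 35 of the 53 in 11 clusters with gaps under 1 Mb. In the chromosome 4 cluster of UGT2B15, UGT2B10, UGT2B7, UGT2B11, UGT2B4, SULT1B1 and SULT1E1 (chr4:68646630-69860152), 3 of the 5 tested genes rose and 0 fell, where 26.7% of all tested genes rose, and UGT2B4 is 1 of the 3. In the cluster of CYP2A6, CYP2B6 and CYP2S1, the pair that fell had passed the filter through sh-NC alone, and CYP2A6, below the filter, had 14 reads in all in sh-NC against 61 in sh-CLGN. In the alpha-class cluster of chromosome 6 (chr6:52750089-52995378) 2 of 3 tested GSTs fell and 0 rose, where 39.0% of all tested genes fell. Elsewhere direct neighbours parted, since CYP1A1 fell where the reads of CYP1A2 were higher. Of the 53 genes, 21 share more than 10% of their 50-base stretches with other genes, 8 of them tested, and their values are uncertain to that extent.

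The partners of these enzymes were read from a list of 53 other genes, of which 45 were tested, 11 rose (24.4%) and 21 fell (46.7%), beside 26.7% and 39.0% of all tested genes, and 17 rose under scaling by read totals or quantile normalization. Of 12 tested receptors and receptor partners, 2 rose and 7 fell. ARNT, the partner of AHR, fell by 0.33 and TIPARP, an AHR-induced repressor of AHR, by 0.42. The xenobiotic receptors parted. NR1I2 (PXR, the main inducer of CYP3A) rose by 0.76, from 1.09, 1.35 and 0.937 FPKM to 2.61, 2.29 and 2.94. NR1I3 (CAR, the main inducer of CYP2B6) fell by 0.31, from 1.43, 1.45 and 1.23 FPKM to 0.767, 0.941 and 1.05. NR1I3 met the expression filter only through its sh-NC libraries, which favours a fall. The retinoic acid receptors parted as well, RARB rising by 0.58 and RARA falling by 0.44. NR1H4, PPARA and HNF4A, nuclear receptors that set hepatic lipid and bile acid genes, fell by 0.50, 0.39 and 0.30. Under the alternatives no called partner changed sign, but 6 of the 32 lost their call in at least 1, ARNT, NR1I3, HNF4A and RARA among them, and NR1I3 in 9 of 19.

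Of the 6 tested electron donors and P450 partners, 2 fell, CYB5R3 (by 0.57) and FDX1 (by 0.55), and 0 rose. Of 11 genes that supply cosubstrates, 4 rose and 5 fell, beside 26.7% and 39.0% of all tested genes. For glucuronidation, UGP2 and UGDH, which make UDP-glucuronic acid, rose by 0.59 and 0.25, and its transporter SLC35D1 fell by 0.62. For sulfation, the sulfate donor synthase PAPSS2 rose by 0.67 and PAPSS1 had a log2 change of -0.05. For glutathione, GCLM, GSS and GSR fell by 0.82, 0.41 and 0.44, while GCLC had one of -0.06.

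Of 16 other drug-metabolizing enzymes tested, 5 rose and 7 fell, beside 26.7% and 39.0% of all tested genes. FMO4, which rose, was at 0.598, 0.844 and 1.00 FPKM in sh-NC and met the filter only through sh-CLGN, which favours a rise. CES1, the main carboxylesterase of liver, was at 46.9, 45.5 and 43.6 FPKM in sh-NC and at 13.9, 12.7 and 10.5 in sh-CLGN (log2 change -1.80, SE 0.093, limma adjusted p = 4.08e-06). NQO1, a quinone reductase, was at 30.07, 29.32 and 30.70 FPKM against 13.48, 12.41 and 12.01 (log2 change -1.19, SE 0.055, limma adjusted p = 2.76e-06). These were the only partner genes past both thresholds, and in each the groups lay well apart. Aldehyde oxidase AOX1 rose by 0.98.

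CLGN itself was at 21.0 to 26.1 FPKM in sh-NC against 8.60 to 9.48 in sh-CLGN, 37.8% of the control. Libraries held 14955816 to 16244639 reads, and r between libraries was 0.9883 to 0.9918 within groups and 0.9374 to 0.9454 between them. The deposited FPKM had been scaled to library sizes that were 0.933 to 0.953 of the recovered reads for sh-NC but 1.07 to 1.08 for sh-CLGN. Scaling by read totals instead moved the median change of all genes up by 0.16 and the share of calls that were higher from 40.7% to 59.2%, and TPM scaling moved them by 0.11 and to 52.2%, with 12 of the tested drug-metabolism genes higher and 10 lower under either. The 9 hepatocyte markers summed to 7069 to 7306 FPKM in sh-NC against 7171 to 7635 in sh-CLGN, with 3 higher and 5 lower. That sum joins changes of opposite sign. ALB fell from a mean of 2007 to 1076 FPKM and TF from 181 to 58.4, and APOB, SERPINA1 and HNF4A also fell. AFP rose from a mean of 2670 to 3782 FPKM, and FGB and TTR also rose. The 6 fibroblast markers summed to 3.01 to 3.29 FPKM in sh-NC against 6.78 to 7.45, the 3 tested ones (COL3A1, PDGFRB and LUM) rose, COL3A1 and LUM having passed the filter through sh-CLGN alone, and THY1 and DCN were at or near 0. Endothelial markers summed to 3.33 to 3.67 against 2.38 to 2.65 FPKM with KDR at 0. Leukocyte markers summed to 1.20 to 1.48 against 0.471 to 0.780 FPKM with PTPRC near 0. Most of that was CD14, at a mean of 1.35 against 0.524 FPKM. Cholangiocyte markers summed to 126 to 135 against 90.8 to 96.4 FPKM with KRT7 near 0. Of these SOX9 fell, from a mean of 93.8 to 36.9 FPKM, while KRT19 rose, from 37.3 to 56.9. The part of these cell type markers in the changes above was not tested.

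Across the 19 alternative settings and left-out libraries, 20 of the 21 called genes kept their call, the exception being UGT2B4, and no called gene changed sign. The other limma filters, limma without trend, protein-coding genes alone and the replicate block keep a gene's log2 change, so no sign could turn there. Median-ratio scaling used the same factor (1.008) for all 6 libraries and hardly moved the changes. AHR ranged from -1.34 to -0.99, CYP1A1 from -1.06 to -0.74, CYP2B6 from -2.46 to -1.19, CYP2S1 from -2.79 to -0.89, EPHX2 from -1.13 to -0.84 and SULT1E1 from 0.75 to 1.20 on the log2 scale.

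**Figure D5:**
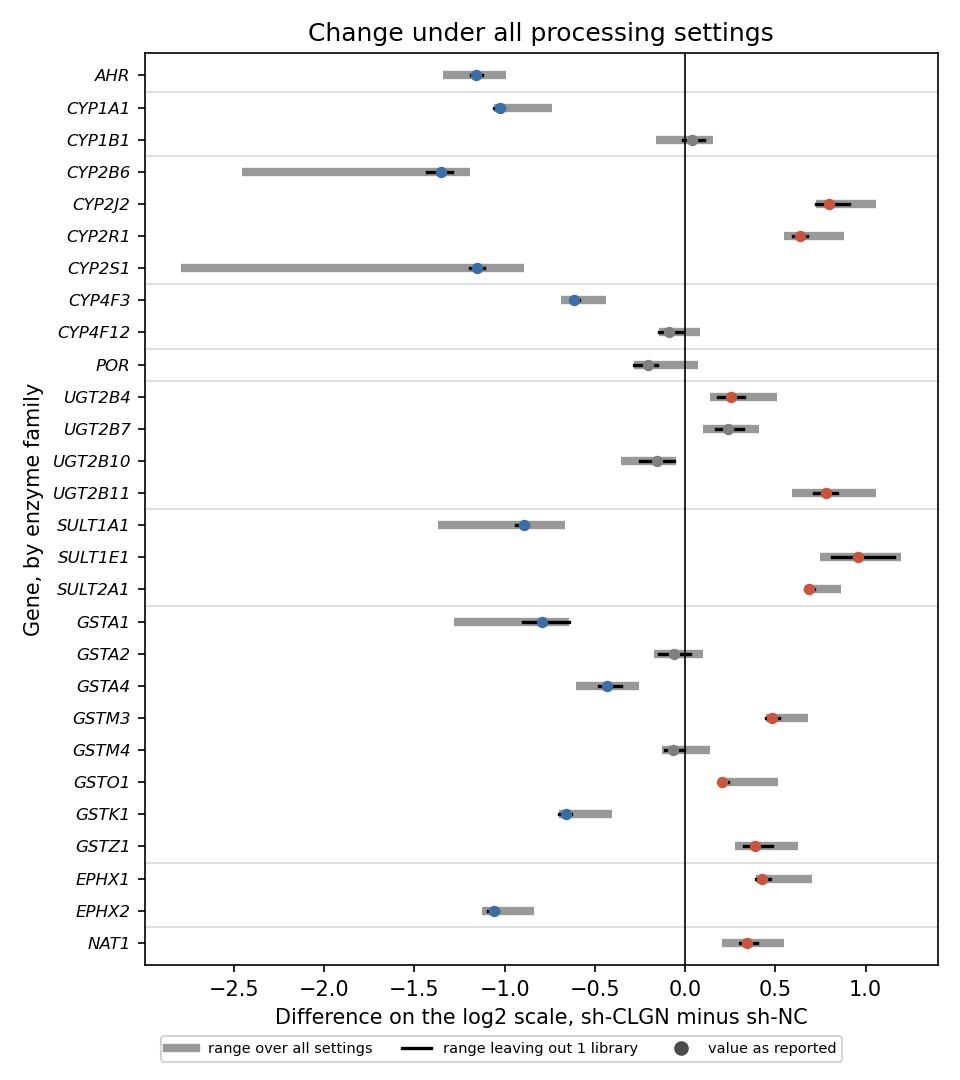
Range of the log2 difference, sh-CLGN minus sh-NC, of each tested gene over all settings (grey) and over fits that leave out 1 library (black), with the reported value as a dot (red for higher, blue for lower, grey for no call). Ranges of the called genes stay on one side of 0, while those of CYP1B1, CYP4F12, POR, GSTA2 and GSTM4 cross it.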

How the data were processed

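RNA of 6 Hep-G2 libraries had been prepared with a NEBNext Ultra kit, per the labels. The authors deposited FPKM per gene, and their processing notes name HISAT2 2.0.5, featureCounts and GRCh38. Strandedness of counting and treatment of reads shared by several genes are not given in the sources used here. Positions and lengths of all 58735 genes equalled GENCODE 29. FPKM times length fell on whole reads for 100% of values (tolerance 0.01 of a read), which gave the reads per gene. Table columns named KD were taken as sh-CLGN by number. The floor of 3 reads covers counting error only, while the 95% intervals are limma's and rest on the spread between libraries.

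Genes at 1 FPKM or more in 3 or more libraries were tested with limma 3.58.1 in R 4.3.3 (eBayes with trend, log2(FPKM + 1), no covariate, two-sided, Benjamini-Hochberg over 13074 genes) and called where the adjusted p was 0.05 or less. The added fit used limma's voom on recovered reads. Promoter windows were read from RefSeq with Python 3.11.15. The procedure was tested on simulated data. Members, lists and tests were chosen with earlier results of these data known. Full values are given for genes past both thresholds and the largest called change of each family, other tested genes by log2 change, and genes below the filter by reads. Of partner and related genes, those past both thresholds are named, and of each partner group examples by role. Some were named after their values were seen. Alternatives were another pseudocount, other filters, scalings and tests, a GC correction, the replicate number as a block and each library left out.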

Additional observations from a re-analysis of the deposited data

How the results depend on the processing

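Directions and calls of 20 of the 21 called genes held under all 19 alternatives, and UGT2B4 lost its call under 4 of them (0.26 with no filter, 0.14 with the GC correction, 0.25 and 0.24 without sh-CLGN library 1 or 3). Several of the 19 leave the log2 change of a gene as it was, so only its call could move there. Leaving out 1 library at a time gave 10 to 12 genes higher and 10 to 11 lower, 0 to 1 higher and 5 to 5 lower past both thresholds, 11 to 12 partners higher and 20 to 23 lower, and 3 to 5 related genes of the same families higher and 5 to 6 lower. SULT1E1 was the gene past both thresholds without sh-NC library 3 or sh-CLGN library 3. Past both thresholds, 1 gene was higher with a pseudocount of 0.1, with scaling by read totals and with quantile normalization, 3 with TPM scaling and with voom, and 9 with the added voom fit, which kept genes down to 10 reads and also raised the genes called higher to 19 and the related genes called higher to 11, since it tested more genes. Past both thresholds, 2 genes were lower with scaling by read totals (CYP2B6 and CYP2S1) and 2 with the GC correction (AHR and CYP2B6). With scaling by read totals and with quantile normalization 17 partners were higher, and with quantile normalization 7 related genes. The signs of 5 genes without a call turned: CYP1B1 to -0.16 with quantile normalization and -0.011 to 0.11 over the left-out libraries, CYP4F12 to 0.024 (TPM), 0.080 (read totals) and 0.029 (GC), POR to 0.070 (quantile) and 0.060 (GC), GSTA2 to 0.046 (TPM), 0.097 (read totals) and -0.15 to 0.029 over the left-out libraries, and GSTM4 to 0.033 (TPM), 0.076 (read totals) and 0.14 (GC). POR passed the threshold with voom, among protein-coding genes alone and without sh-NC library 3 or sh-CLGN library 3. UGT2B7 passed with TPM scaling (0.41), with scaling by read totals (0.38), among protein-coding genes alone and without sh-NC library 3 (0.32), and UGT2B10 with quantile normalization (-0.36). Why these values moved was not tested. Deviations of libraries with the same replicate number correlated at -0.018, -0.046 and -0.146, so the numbers did not pair the libraries. With the replicate block 11 genes were higher and 10 lower, 0 and 5 past both thresholds, 11 partners higher and 20 lower, and 4 related genes higher and 5 lower. With 3 libraries a group, 1 hairpin and few reads on the silent P450s, small changes of low genes were not detectable at this depth.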

Other observations

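Other protein-coding genes of the same families, not among the 53, numbered 64, of which 16 were tested, 4 rose (25%) and 5 fell (31.2%), beside 26.7% and 39.0% of all tested genes. SULT1C2, a cytosolic sulfotransferase, rose from 1.49, 1.44 and 1.42 FPKM in sh-NC to 8.48, 8.49 and 8.01 in sh-CLGN, a log2 change of 1.93 (SE 0.060, limma adjusted p = 7.36e-07). CYP19A1, the aromatase that makes estrogens, rose from 0.272, 0.260 and 0.352 FPKM to 3.44, 2.87 and 3.04, a log2 change of 1.67 (SE 0.091, limma adjusted p = 5.2e-06). These were the only related genes past both thresholds, and CYP19A1 passed the expression filter through sh-CLGN alone. UGT2A3 rose by 0.89 and CYP39A1, an oxysterol hydroxylase, by 0.32, a call it lost in 5 of 19 alternatives. CYP51A1, the demethylase of cholesterol synthesis, fell by 0.97, from 5.99 to 2.57 FPKM, MGST2, a microsomal glutathione transferase, by 0.91, and CYP26B1, a retinoic acid hydroxylase, by 0.84, from 26.1 to 14.1 FPKM. GSTP1, the pi-class transferase, was more abundant than any of the 53 genes, at 713 FPKM in sh-NC against 742 in sh-CLGN, with a log2 change of 0.06 (limma adjusted p = 0.526).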
